A study of Mus musculus with 8 samples.

Results

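The transcripts of the hypoxia-inducible factor (HIF) system outside glycolysis were described in mouse bone-marrow derived macrophages: the factor subunits Hif1a and Epas1, the prolyl hydroxylases Egln1 and Egln3, and the targets Vegfa, Bnip3, Ndrg1, Adm and P4ha1. These 9 genes were chosen by name, with earlier results of these data known. Each had 1 row among 20258 rows with a symbol, and all 9 were among the 13615 genes tested. Macrophages grown from marrow of C57BL/6 mice had been kept for 24 h with the cytokine IL4 (3 libraries), with bacterial lipopolysaccharide and interferon gamma together (LPS plus IFNg, 3 libraries), or unstimulated (2 libraries). Nothing in the labels says that oxygen was lowered in any group. Expression was read by sequencing the 3' end of polyadenylated RNA. Each value is a log2 expression level that the authors had quantile normalised, and the depth of each library is unknown. Whether replicates came from different mice or wells is not stated, so a p-value here reflects the variation among these libraries, and that variation may be technical. The comparisons ask how alternative activation (IL4) and classical activation (LPS plus IFNg) differ from no stimulus and from each other.

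HIF is a pair of an oxygen-regulated alpha subunit, such as the products of Hif1a and Epas1, and the stable partner encoded by Arnt. When oxygen is present, prolyl hydroxylases of the Egln family mark the alpha subunit, the VHL ligase binds it, and it is degraded, so most of its control lies in the protein and is not seen in RNA. In macrophages, inflammatory stimuli also raise Hif1a transcription under normal oxygen, and mouse work has linked Hif1a with classical and Epas1 with alternative activation.

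HIF binds DNA at the letters ACGTG or GCGTG. RefSeq promoter windows (GRCm38.p6) were found for 7 of the 9 members, Hif1a, Egln1, Egln3, Vegfa, Bnip3, Adm and P4ha1. The 250 bases before the start are shown for the 3 members that were higher with LPS plus IFNg than with IL4, with ACGTG and GCGTG on either strand in capitals; the letters CACGTG hold an overlapping match on each strand. The Hif1a window is chr12:73907617-73907866, plus strand, the Egln3 window chr12:54203875-54204124, minus strand, and the Bnip3 window chr7:138909507-138909756, minus strand.
Hif1a: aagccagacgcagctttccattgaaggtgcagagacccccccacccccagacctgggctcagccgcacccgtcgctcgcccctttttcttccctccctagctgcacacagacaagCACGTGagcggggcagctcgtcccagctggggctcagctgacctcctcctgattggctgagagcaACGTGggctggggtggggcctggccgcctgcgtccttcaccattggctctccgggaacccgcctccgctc
Egln3: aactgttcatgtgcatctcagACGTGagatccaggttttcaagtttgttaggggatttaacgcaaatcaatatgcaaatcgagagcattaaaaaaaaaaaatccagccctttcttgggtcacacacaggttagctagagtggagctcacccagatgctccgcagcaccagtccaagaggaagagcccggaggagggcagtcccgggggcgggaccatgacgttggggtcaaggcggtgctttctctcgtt
Bnip3: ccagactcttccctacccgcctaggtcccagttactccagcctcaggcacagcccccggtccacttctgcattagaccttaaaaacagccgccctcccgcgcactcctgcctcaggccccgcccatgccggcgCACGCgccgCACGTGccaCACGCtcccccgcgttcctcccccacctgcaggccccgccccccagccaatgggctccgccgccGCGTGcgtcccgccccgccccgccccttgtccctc
The Bnip3 window held 5 matches, the first 117 and the last 35 bases before the start. The Hif1a window held 3, of which 2 overlap at CACGTG, and the Egln3 window held 1, 229 bases before the start. The P4ha1 window held 3 matches and those of Egln1 and Adm 2 each. Vegfa has 2 windows on the minus strand, with 0 matches (chr17:46032378-46032627) and 2 matches (chr17:46025164-46025413). The window with 2 matches lies downstream of the other, so these matches are not upstream of the first start. Of 32851 RefSeq windows of this length, 38.6% held at least 1 match, 6.58% at least 3 and 2.58% at least 4. Every match contains the letters CG, which occurred 14 times in the Hif1a, 10 in the Egln3 and 24 in the Bnip3 window. The median over all windows was 6, so these shares are not for windows of like CG content. A match is only a run of letters; it does not show binding.

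Stimulus markers were highest in the group that the labels name. Arg1, an arginase typical of IL4, averaged 13.58 in IL4, 7.65 in LPS plus IFNg and 3.25 in unstimulated libraries. It thus also rose with LPS plus IFNg against no stimulus (limma adjusted p = 0.00287). Mrc1, another check gene, averaged 12.07, 6.41 and 10.71 in the same groups, and its rise with IL4 did not pass (limma adjusted p = 0.109). Nos2, inducible nitric oxide synthase, was at 10.06 to 10.43 in LPS plus IFNg libraries and listed at 0 in the other 5. Of 9 macrophage marker symbols, 8 had a row and none was at 0 in a whole group; Adgre1, the symbol without a row, is another name of Emr1, which had one. Of these 8, 4 fell with IL4, and 1 rose and 2 fell with LPS plus IFNg, against no stimulus, and 3 were higher with LPS plus IFNg than with IL4. Their summed linear level was 9384 to 14020 with IL4, 12930 to 13780 with LPS plus IFNg and 19680 to 20760 without stimulus. Fibroblasts can also make Vegfa and P4ha1, and their markers summed to 1231 to 1751, 1326 to 2523 and 2589 to 3303 in the same groups, with 0 of 7 past the threshold in limma in any comparison and Lum at 0 in unstimulated libraries. Markers of endothelial cells, which are known for Epas1, summed to 16.1 to 42.4 with IL4, 23.8 to 70.8 with LPS plus IFNg and 10.6 to 19.9 without stimulus, with Tek and Robo4 at 0 throughout and Cdh5, Kdr, Esam and Tie1 also at 0 in all IL4 libraries. Neutrophil and precursor markers summed to 105 to 312, 33.8 to 64.8 and 393 to 422 in the same order of groups. The part of other cells in the results was not tested, and in bulk RNA fewer cells of a type and less RNA per cell cannot be told apart. Of the tested genes, 3204 to 3568 were listed at 0 in IL4, 2964 to 2985 in LPS plus IFNg and 1577 to 2588 in unstimulated libraries, so a member at 0 may still have been present below detection.

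With IL4 against no stimulus, 0 of the 9 members passed in limma (a gene passed at a Benjamini-Hochberg adjusted p under 0.05 over all genes tested). Of all genes tested 0.514% were higher and 0.793% lower, 1.31% together. At an unadjusted p under 0.05, 3 members (Hif1a, Egln1 and Bnip3) and 12.1% of all genes were counted. With LPS plus IFNg against no stimulus, Hif1a and Egln3 rose and none fell, against 3.72% of all genes higher and 4.25% lower, 7.97% together. With LPS plus IFNg against IL4, Hif1a, Egln3 and Bnip3 were higher and Epas1 was lower, against 5.91% of all genes higher and 6.96% lower, 12.9% together. Egln3 was listed at 0 in every other library, so it was tested only through its LPS plus IFNg values. The median log2 difference of the members was 0.59, 1.23 and 0.73 in these comparisons, against -0.01, -0.04 and 0 over all genes tested. Without members listed at 0 in a whole group the medians were 0.62 (8 members), 1.23 (7) and 0.73 (7). Both medians of 1.23 are the value of Adm, which rests on 1 library and was -0.02 without LPS plus IFNg replicate 2. The members next to it were Egln1 (1.0) and Vegfa (1.39). The comparisons with no stimulus share the same 2 control libraries, and each pair of comparisons shares a group. Members and the gene lists below were chosen with earlier results of these data known, so setting them beside all genes describes them and is not a test.

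**Figure D1:**
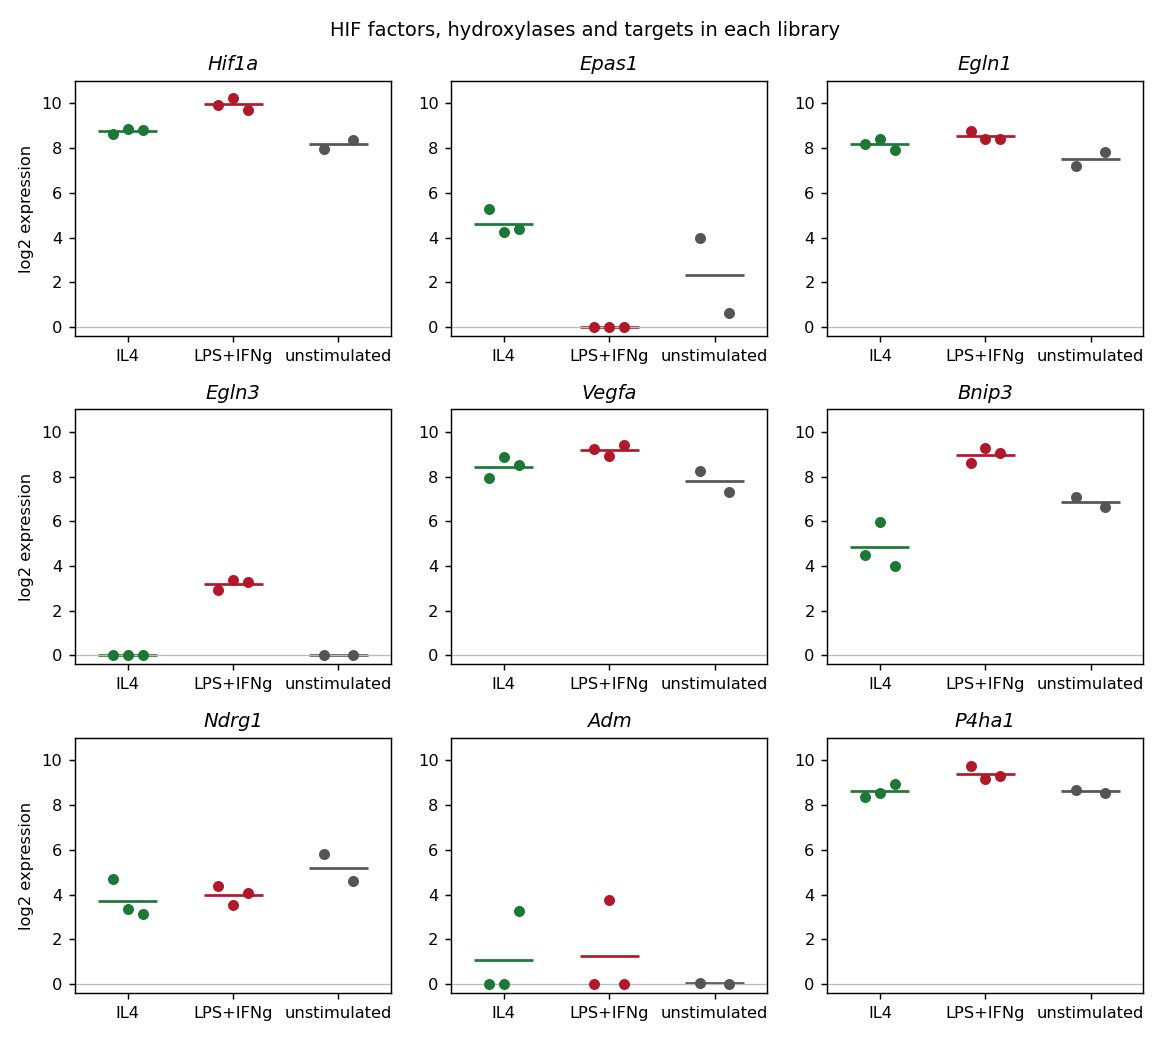
Log2 expression of the 9 members in each library (points), by group, with the group mean as a bar; IL4 and LPS plus IFNg have 3 libraries and unstimulated has 2. Hif1a lies highest with LPS plus IFNg (9.71 to 10.22), Epas1 is at 0 there, and the 3 groups do not overlap for Hif1a, Epas1, Egln1 and Bnip3.

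Hif1a, the alpha subunit of HIF-1, was highest with LPS plus IFNg and lowest without stimulus. It stood at 8.61, 8.84 and 8.81 in IL4 libraries, at 9.95, 10.22 and 9.71 in LPS plus IFNg libraries, and at 7.96 and 8.37 in unstimulated libraries. The 3 groups did not overlap, and their means were 8.75 ± 0.13 with IL4, 9.96 ± 0.26 with LPS plus IFNg (SD, n = 3 each) and 8.17 ± 0.29 without stimulus (SD, n = 2). LPS plus IFNg was 1.79 higher than no stimulus on the log2 scale (SE 0.22, adjusted p = 0.00446, 3.46-fold) and 1.20 higher than IL4 (SE 0.20, adjusted p = 0.0084, 2.30-fold). The lower step, IL4 above no stimulus by 0.59 (SE 0.22), did not pass (adjusted p = 0.347). Both LPS plus IFNg calls held under all 16 alternatives, with adjusted p up to 0.0282 and 0.0317. The gene overlaps Gm49321 on the same strand and Gm15283 on the other in GENCODE M21; how strand was used in counting is not stated, so the reads of these genes cannot be told apart.

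Epas1, which encodes HIF-2 alpha, had the reverse order between the stimuli. IL4 libraries were at 5.26, 4.26 and 4.36, all 3 LPS plus IFNg libraries were listed at 0, and unstimulated libraries were at 4.0 and 0.62. The IL4 libraries lay above all others, while the unstimulated libraries lay far apart from each other. LPS plus IFNg was lower than IL4 (limma adjusted p = 0.0202; no fold is given because a group was listed at 0). The call was lost without IL4 replicate 1 (adjusted p = 0.0555) and without any 1 of the LPS plus IFNg libraries (0.0608 to 0.0655). Against no stimulus neither stimulus passed: IL4 was higher by 2.31 (SE 1.08, adjusted p = 0.462), and LPS plus IFNg had adjusted p = 0.304. The IL4 difference was 4.0 without unstimulated replicate 1 and 0.62 without unstimulated replicate 2 (adjusted p = 0.0558 and 0.897). Against no stimulus, the LPS plus IFNg difference was -4.0 without unstimulated replicate 2, the library at 0.62, and -0.62 without unstimulated replicate 1. It thus depends on which unstimulated library is kept. The gene overlaps AC096777.1 on the same strand.

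Among tested genes with a mean of at least 5 (7283), the 5 whose pattern over the 8 libraries was most like that of Hif1a were Pim1, Tor3a, Tnfaip3, Ccnyl1 and Tmem104. After centring each gene on its own mean, their root mean square difference from Hif1a was 0.20 to 0.24 on the log2 scale, beside a spread of 0.75 for Hif1a itself. Pim1, a serine/threonine kinase, stood at 10.68 to 11.16 with IL4, 11.84 to 11.97 with LPS plus IFNg and 9.94 to 10.16 without stimulus. Tnfaip3, an inhibitor of NF-kB signalling, stood at 7.10 to 7.36, 8.38 to 8.62 and 5.99 to 7.12 in the same groups. For Epas1 the closest were Atp6v0a1, Ckb, Ank, Nes and Mrc1, at 0.83 to 1.06, beside a spread of 2.19. Mrc1, the mannose receptor, stood at 11.64 to 12.51 with IL4, 6.17 to 6.63 with LPS plus IFNg and 10.41 to 11.02 without stimulus. These 5 genes were above 0 in every library.

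Egln1, the main prolyl hydroxylase that restrains HIF, had the same order of group means as Hif1a. It was at 8.21, 8.40 and 7.91 with IL4, at 8.75, 8.43 and 8.40 with LPS plus IFNg, and at 7.22 and 7.84 without stimulus. The groups did not overlap, yet the highest IL4 and the lowest LPS plus IFNg libraries both rounded to 8.40. LPS plus IFNg was 1.0 higher than no stimulus (SE 0.27, adjusted p = 0.0712), IL4 was 0.64 higher (SE 0.27, adjusted p = 0.402), and the stimuli differed by 0.36 (SE 0.24, adjusted p = 0.436), so no comparison passed in limma. Without unstimulated replicate 1 the IL4 difference from no stimulus was 0.34, and without IL4 replicate 3 the stimuli differed by 0.23.

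Egln3, a hydroxylase that is itself a HIF target, was seen only with LPS plus IFNg in these 8 libraries. It was at 2.91, 3.38 and 3.27 there and was listed at 0 in all 3 IL4 and both unstimulated libraries. Egln3 was therefore tested only through its LPS plus IFNg values. The libraries at 0 add no spread, so the p-values that follow rest on the spread of 3 low values and of other genes. Limma gave adjusted p = 0.0030 against IL4 and 0.00725 against no stimulus, and no fold is given. With only IL4 and LPS plus IFNg in the fit the first became 0.0543. Leaving out any 1 library gave at most 0.0148 against IL4 and 0.0186 against no stimulus.

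Bnip3, a mitochondrial membrane protein that promotes removal of mitochondria, had the widest gap between the stimuli among members above 0 in every library. IL4 libraries were at 4.50, 5.99 and 4.01, LPS plus IFNg libraries at 8.61, 9.26 and 9.07, and unstimulated libraries at 7.07 and 6.64. Every IL4 library lay below, and every LPS plus IFNg library above, both unstimulated ones, with means of 4.83 ± 1.03, 8.98 ± 0.34 (SD, n = 3 each) and 6.85 ± 0.30 (SD, n = 2) in this order of groups. LPS plus IFNg was 4.15 higher than IL4 (SE 0.51, adjusted p = 0.00257, 17.7-fold), and this call held in all 16 alternatives (adjusted p up to 0.0163). Against no stimulus, LPS plus IFNg was 2.13 higher (SE 0.58, adjusted p = 0.0739) and IL4 had a log2 difference of -2.02 (SE 0.58, adjusted p = 0.187), and neither passed. Without IL4 replicate 2, the IL4 library at 5.99, the adjusted p was 0.0138 for LPS plus IFNg and 0.0434 for IL4. For LPS plus IFNg it was also 0.05 without IL4 replicate 3, 0.361 without unstimulated replicate 2, 0.0165 with only those 2 groups fitted, and 0.0234 and 0.0153 with the lowest 25% of genes or genes with a mean under 5 left out. The last 300 bases of the Bnip3 transcript matched Gm45507, which overlaps it on the other strand, and AC160336.1 at an identity of at least 95% over 50 bases or more, so its level is uncertain where reads could be split.

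Vegfa, the growth factor for blood vessels, was at 7.95, 8.86 and 8.54 with IL4, at 9.23, 8.92 and 9.40 with LPS plus IFNg, and at 8.27 and 7.32 without stimulus. All LPS plus IFNg libraries were above all others, and IL4 overlapped with no stimulus. LPS plus IFNg was 1.39 higher than no stimulus (SE 0.37, adjusted p = 0.0711) and 0.73 higher than IL4 (SE 0.33, adjusted p = 0.222), and IL4 was 0.65 higher than no stimulus (SE 0.37, adjusted p = 0.534). The first passed when the lowest 25% of genes by mean, or genes with a mean under 5, were left out (adjusted p = 0.0251 and 0.0212). Without unstimulated replicate 2 it was 0.92 (adjusted p = 0.372), and the IL4 difference from no stimulus was 0.18.

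P4ha1, a subunit of the enzyme that hydroxylates proline in collagen, stood at 8.38, 8.52 and 8.93 with IL4, at 9.74, 9.17 and 9.31 with LPS plus IFNg, and at 8.67 and 8.54 without stimulus. The LPS plus IFNg libraries were again all above the rest, and IL4 and unstimulated libraries overlapped around the same mean of 8.61. The differences of 0.80 from no stimulus (SE 0.25, adjusted p = 0.115) and 0.79 from IL4 (SE 0.22, adjusted p = 0.0612) did not pass, and the second passed without IL4 replicate 3 (0.043). The interval of the IL4 difference from no stimulus was -0.58 to 0.59.

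Ndrg1, a stress-responsive gene often used as a hypoxia marker, had lower means in both stimulated groups. It was at 4.67, 3.35 and 3.11 with IL4, at 4.39, 3.54 and 4.05 with LPS plus IFNg, and at 5.81 and 4.60 without stimulus. LPS plus IFNg libraries lay below both unstimulated ones, and 1 IL4 library lay between these. Neither difference passed (-1.50 with SE 0.82 for IL4, adjusted p = 0.521, and -1.21 with SE 0.82 for LPS plus IFNg, adjusted p = 0.498), and without unstimulated replicate 1 they were -0.89 and -0.61. Adm, which encodes the vasodilator peptide adrenomedullin, was listed at 0 in 5 of 8 libraries. It reached 3.28 in IL4 replicate 3 and 3.75 in LPS plus IFNg replicate 2, and was 0.04 in unstimulated replicate 1, so each stimulated group's mean rests on 1 library. The end of its transcript also matched 6 other genes.

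**Figure D2:**
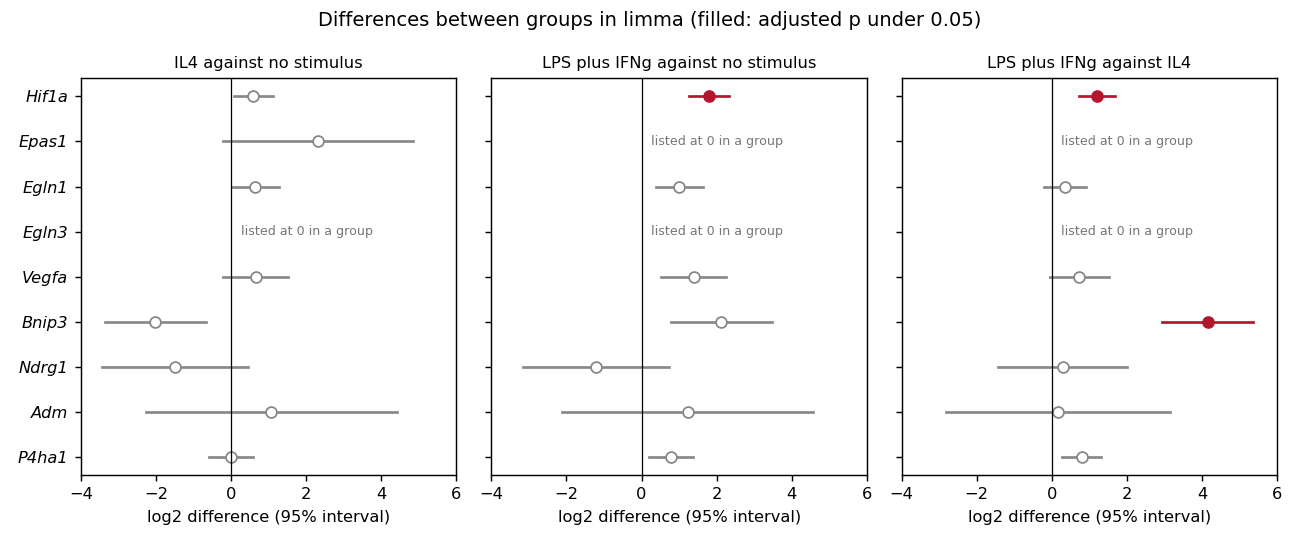
Log2 differences of the members with 95% intervals from limma on all 8 libraries, for each comparison as first group minus second; filled points passed at an adjusted p under 0.05, and members listed at 0 in a whole group have no point. Hif1a passed in both comparisons of LPS plus IFNg (1.79 and 1.20) and Bnip3 against IL4 (4.15).

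By position alone, libraries of LPS plus IFNg lay all above the unstimulated ones for 6 members (Hif1a, Egln1, Egln3, Vegfa, Bnip3 and P4ha1) and all below for 2 (Epas1 and Ndrg1); of all genes 16.1% were all above and 20.7% all below, 36.7% together. Against IL4 the same 6 members were all above and Epas1 all below, beside 12.4% and 14.8% of all genes, 27.1% together. For IL4 against no stimulus 3 members were all above (Hif1a, Epas1 and Egln1) and Bnip3 all below, beside 11.7% and 14.7%, 26.5% together. Egln3 entered these counts only through its LPS plus IFNg values, and the members were chosen with earlier results of these data known.

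The number of members that passed depended on how the libraries were scaled. Quantile normalisation sets libraries to a like distribution of values. When the mean of 11 housekeeping genes was made equal instead, the median of all genes for LPS plus IFNg moved by 0.89 against no stimulus and by 0.69 against IL4; with 82 ribosomal protein genes made equal it moved by 1.47 and 1.47. For IL4 against no stimulus it moved by 0.20 and 0.00. Each scaling moved all values of a library by the same amount, values listed at 0 included. Differences of Egln3 and of other genes at 0 in a group therefore include a shift of undetected values, and so do the shares below. Under either scaling 6 members rose with LPS plus IFNg in both comparisons: Hif1a, Egln1, Egln3, Vegfa, Bnip3 and P4ha1. Of all genes, 12.1% rose and 1.7% fell against no stimulus with housekeeping scaling, and 39.4% and 1.34% with ribosomal protein scaling. Against IL4 these shares were 13.5% and 3.3%, and 48.5% and 2.09%. Measured relative to the shift, their differences are those given above. Over all genes, the calls for LPS plus IFNg against no stimulus were 506 higher and 579 lower as deposited, 1654 and 232 with housekeeping scaling, and 5370 and 183 with ribosomal protein scaling. Against IL4 they were 804 and 948, 1839 and 449, and 6601 and 284. For IL4 against no stimulus they were 70 and 108, 102 and 74, and 60 and 91, and no member passed under any of the 3. Ndrg1 against no stimulus had a log2 difference of 0.26 with ribosomal protein scaling in place of -1.21. Which scaling is closer to RNA per cell was not tested. Among the housekeeping genes, Eef1a1, a translation factor, was at 12.37 to 12.55 with IL4, 9.79 to 10.01 with LPS plus IFNg and 12.79 to 12.87 without stimulus. Rplp0, a ribosomal protein gene, is in both gene sets, so these scalings are not independent.

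**Figure D3:**
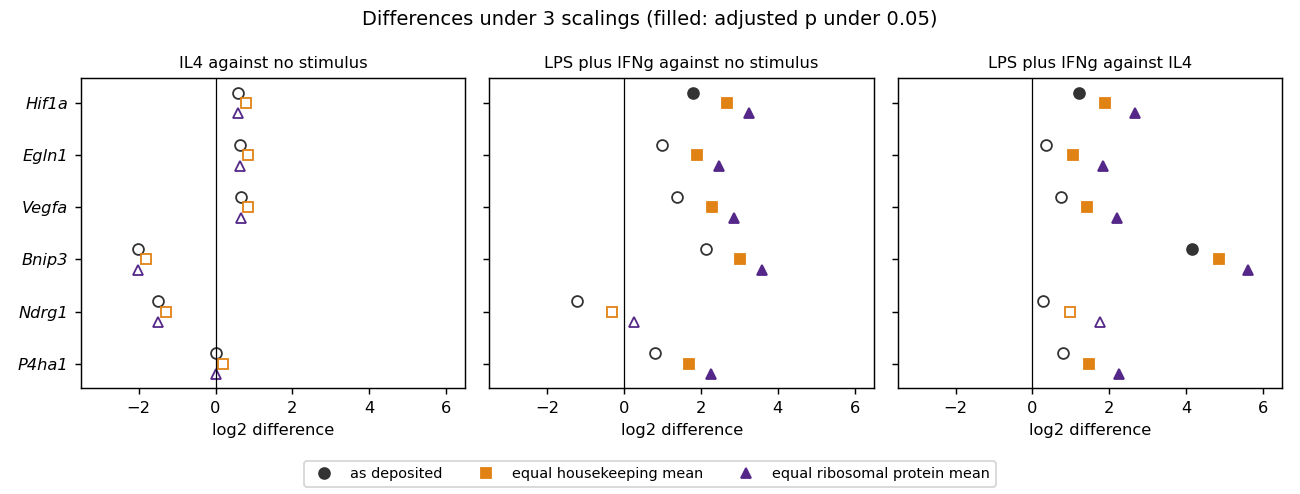
Log2 differences of the 6 members above 0 in every library, under the deposited scaling, equal housekeeping means and equal ribosomal protein means; filled symbols passed at an adjusted p under 0.05. For LPS plus IFNg, Egln1, Vegfa and P4ha1 passed with the other 2 scalings and not as deposited, and so did Bnip3 against no stimulus.

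Of 19 other regulators of HIF, 17 were tested, and Arnt2 and Hif3a were listed at 0 in every library. With IL4 against no stimulus 0 passed in limma, and 1 (Arnt) had an unadjusted p under 0.05, beside 1.31% and 12.1% of all genes. With LPS plus IFNg 1 of the 17 fell against no stimulus and 1 against IL4, beside 4.25% and 6.96% of all genes. In both cases this was Gnb2l1, whose product RACK1 is a ribosomal protein that can also direct HIF-1 alpha to degradation. Gnb2l1 was at 10.47, 10.36 and 10.13 with IL4, at 8.21, 8.50 and 8.84 with LPS plus IFNg, and at 10.19 and 10.20 without stimulus. The LPS plus IFNg libraries lay below all others, and the IL4 and unstimulated libraries overlapped. The log2 difference was -1.68 against no stimulus (SE 0.22, adjusted p = 0.00549) and -1.80 against IL4 (SE 0.20, adjusted p = 0.0016). Housekeeping scaling gave -0.78 against no stimulus (adjusted p = 0.0555), and ribosomal protein scaling gave -0.21 and -0.33 (adjusted p = 0.465 and 0.188). The median log2 difference of the list was -0.02 for IL4 against no stimulus, -0.38 for LPS plus IFNg against no stimulus and 0 against IL4, beside -0.01, -0.04 and 0 over all genes tested. With ribosomal protein scaling 9 of the 17 rose with LPS plus IFNg against no stimulus and 10 against IL4, where 39.4% and 48.5% of all genes rose.

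Arnt, the shared partner subunit, was at 7.72, 7.65 and 8.31 with IL4, at 8.11, 7.56 and 8.12 with LPS plus IFNg, and at 8.64 and 8.51 without stimulus. Every stimulated library lay below both unstimulated ones, and the differences did not pass (-0.69 with adjusted p = 0.405 for IL4 and -0.65 with adjusted p = 0.281 for LPS plus IFNg). Vhl, which marks hydroxylated HIF alpha for degradation, was at 6.55 to 7.56 with IL4, 6.43 to 7.67 with LPS plus IFNg and 6.18 to 6.80 without stimulus, with adjusted p between 0.483 and 0.765. Egln2, the remaining hydroxylase of the family, was at 4.50 to 6.42, 5.08 to 6.59 and 5.47 to 6.30, and Hif1an, which hydroxylates an asparagine of HIF alpha, was at 5.75 to 6.66, 5.34 to 7.08 and 6.79 to 6.98 in the same groups. Neither passed in any comparison. Cited2, which competes with HIF for its coactivators, had a log2 difference of -1.34 for LPS plus IFNg against no stimulus (SE 0.37, adjusted p = 0.0819, and 0.0477 and 0.0385 with low genes left out by either filter), and 0.13 with ribosomal protein scaling. Rbx1, a subunit of the VHL ligase, had 1.15 for IL4 against no stimulus (SE 0.52, adjusted p = 0.449). Ep300, a coactivator of HIF, had 1.09 for LPS plus IFNg against IL4 (SE 0.36, adjusted p = 0.103), and passed under 5 of 16 alternatives (0.000547 to 0.0409): both filters on low genes, both other scalings and the removal of IL4 replicate 1.

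Of 40 other non-glycolytic HIF targets 37 were tested, and Car12, Epo and Tgfa were listed at 0 in every library. Against no stimulus, 1 rose and 0 fell with IL4, and 5 rose and 3 fell with LPS plus IFNg, beside 0.514% and 0.793%, and 3.72% and 4.25%, of all genes. Between the stimuli, 4 were higher and 4 lower with LPS plus IFNg than with IL4, beside 5.91% and 6.96% of all genes. Many of these genes are also direct targets of inflammatory or IL4 signalling. The median log2 difference of the list was -0.02, 0.56 and 0.75 in these comparisons, and -0.43 (33 genes), 0.47 (34) and 0.29 (33) without genes listed at 0 in a whole group. With housekeeping scaling 11 rose and 2 fell against no stimulus with LPS plus IFNg, beside 12.1% and 1.7% of all genes. With ribosomal protein scaling 17 of the 37 rose and 2 fell, beside 39.4% and 1.34% of all genes.

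With LPS plus IFNg against no stimulus the 5 that rose were Nos2, Il1b, P4ha2, Ak4 and Hmox1. Il1b, the inflammatory cytokine, was at 7.69, 8.64 and 8.80 with LPS plus IFNg, at 0 in all IL4 libraries, and at 0.07 and 0 without stimulus (limma adjusted p = 0.00179 against no stimulus and 0.000559 against IL4). P4ha2, a paralog of the member P4ha1, was at 4.12, 3.68 and 4.92 with IL4, at 4.78, 5.62 and 5.64 with LPS plus IFNg, and at 0.35 and 0.79 without stimulus. It was 4.78 higher with LPS plus IFNg than without stimulus (SE 0.80, adjusted p = 0.0124). Ak4, a mitochondrial adenylate kinase, was 2.79 higher (SE 0.42, adjusted p = 0.00824). Hmox1, haem oxygenase, was at 10.60, 10.37 and 10.35 with LPS plus IFNg, against 8.20 and 7.93 without stimulus (2.37 higher, adjusted p = 0.0123). Nos2, Il1b and Hmox1 were also higher with LPS plus IFNg than with IL4 (adjusted p = 0.000169, 0.000559 and 0.00531). Ddit4, an inhibitor of mTOR signalling, was at 4.34, 4.74 and 0 with LPS plus IFNg and listed at 0 in the other groups, and it did not pass (adjusted p = 0.274 against no stimulus and 0.166 against IL4). Without LPS plus IFNg replicate 3, the library at 0, it passed in both comparisons (0.0103 and 0.00482). It also passed with ribosomal protein scaling (0.0269 and 0.0139), but that scaling moved its values at 0 too, so this pass includes a shift of undetected values.

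The 3 that fell were Cxcr4, Zfp395 and Tfrc. Tfrc, the transferrin receptor, was at 11.33, 11.26 and 11.18 with IL4, at 6.93, 7.70 and 8.08 with LPS plus IFNg, and at 9.88 and 10.35 without stimulus. All 3 groups were separate, and LPS plus IFNg fell by 2.54 against no stimulus (SE 0.34, adjusted p = 0.00547) and by 3.69 against IL4 (adjusted p = 0.000511); without unstimulated replicate 2 the first became 0.0629. Cxcr4, a chemokine receptor, was at 6.29, 5.48 and 5.36 with IL4, at 0, 5.26 and 3.27 with LPS plus IFNg, and at 9.40 and 9.50 without stimulus. Its adjusted p against no stimulus was 0.0272 for LPS plus IFNg and became 0.1995 and 0.151 with unstimulated replicate 2 or 1 left out, and 0.0635 with LPS plus IFNg replicate 3 left out. Zfp395 had adjusted p = 0.0212, which became 0.115 and 0.117 with unstimulated replicate 1 or 2 left out, and 0.0599 with LPS plus IFNg replicate 2 left out, and it did not pass with either other scaling (0.0575 and 0.0969).

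The 4 targets lower with LPS plus IFNg than with IL4 were Tfrc, Bhlhe40, Edn1 and Flt1. Bhlhe40, a transcriptional repressor, was at 10.84, 11.42 and 10.90 with IL4, at 6.55, 7.63 and 6.75 with LPS plus IFNg, and at 7.81 and 8.70 without stimulus. IL4 was 2.80 higher than no stimulus (SE 0.41, adjusted p = 0.0271), a call that was lost under 8 of 16 alternatives, among them the removal of either unstimulated library (0.114 and 0.0595), any IL4 library (0.0613 to 0.0673) or LPS plus IFNg replicate 3 (0.0592). LPS plus IFNg was lower than IL4 by 4.08 (SE 0.37, adjusted p = 0.000743). Edn1, which encodes a vasoconstrictor peptide, was at 2.55, 0 and 0 with LPS plus IFNg, against 7.40, 7.80 and 7.82 with IL4 (adjusted p = 0.00594). Unstimulated libraries were at 0 and 2.43. Against them, Edn1 had a log2 difference of 6.45 for IL4 (limma adjusted p = 0.0542) and -0.37 for LPS plus IFNg (0.933), and neither passed. Flt1, a receptor for VEGF-A, was at 3.98, 3.54 and 1.17 with LPS plus IFNg, against 9.10, 9.39 and 10.13 with IL4 (adjusted p = 0.0146, and 0.0502 without IL4 replicate 3). Against no stimulus, where Flt1 was at 0.14 and 4.82, IL4 had adjusted p = 0.0725. That difference was 7.06, but 4.72 without unstimulated replicate 1 (adjusted p = 0.175) and 9.40 without unstimulated replicate 2 (0.0336). It also passed with housekeeping scaling (0.0484) and with low genes left out by either filter (0.00672 and 0.00314).

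Of 21 glycolytic HIF targets, all tested, 1 rose with IL4 against no stimulus, 7 rose with LPS plus IFNg against no stimulus and 6 were higher with LPS plus IFNg than with IL4, and none fell in these comparisons in limma, beside 0.514%, 3.72% and 5.91% of all genes higher. With housekeeping scaling 13 and 9 rose with LPS plus IFNg against no stimulus and IL4, beside 12.1% and 13.5% of all genes, and with ribosomal protein scaling 17 and 16, beside 39.4% and 48.5%. The list's median log2 differences as deposited were 0.32, 1.08 and 0.38. Slc16a3, a lactate exporter, was at 4.67, 4.83 and 5.08 with IL4, at 7.73, 7.55 and 8.58 with LPS plus IFNg, and at 5.24 and 4.90 without stimulus. It was 2.88 higher with LPS plus IFNg than without stimulus (adjusted p = 0.00783) and 3.09 higher than with IL4 (adjusted p = 0.00257). Pfkfb3, which makes an activator of phosphofructokinase, was at 5.58, 5.23 and 3.11 with IL4, at 8.37, 9.10 and 8.57 with LPS plus IFNg, and at 4.70 and 5.18 without stimulus. Its adjusted p was 0.00758 against IL4 and 0.0236 against no stimulus, and the second became 0.0568 to 0.147 when any LPS plus IFNg or unstimulated library was left out. Pgk1, phosphoglycerate kinase, was 1.62 higher with LPS plus IFNg than without stimulus (SE 0.23, adjusted p = 0.0066). Pfkl, a phosphofructokinase, was 1.71 higher with LPS plus IFNg than with IL4 (adjusted p = 0.0357), and this did not pass under 8 of 16 alternatives, among them every removal of an LPS plus IFNg library (0.0813 to 0.122) and of IL4 replicates 1 and 2 (0.0801 and 0.0711). Gapdh, Aldoc and Pfkfb4 had the largest differences that missed the threshold: Gapdh 2.80 for IL4 against no stimulus (adjusted p = 0.258), Aldoc listed at 0 with LPS plus IFNg and averaging 3.17 without stimulus (0.187), and Pfkfb4 -3.73 for LPS plus IFNg against IL4 (0.0793, but 0.0132 without LPS plus IFNg replicate 1 and 0.0251 with the lowest 25% of genes left out). Gapdh was at 0.48 to 4.84 over the 8 libraries, low for so abundant a transcript, and it has many near-identical pseudogenes, so its level is uncertain. Hk2, hexokinase, was the 1 that rose with IL4 (1.55, SE 0.24, adjusted p = 0.0328), and it did not pass when any IL4 or unstimulated library was left out (0.0751 to 0.117), nor without LPS plus IFNg replicate 2 or 3 (0.0518 and 0.0696).

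**Figure D4:**
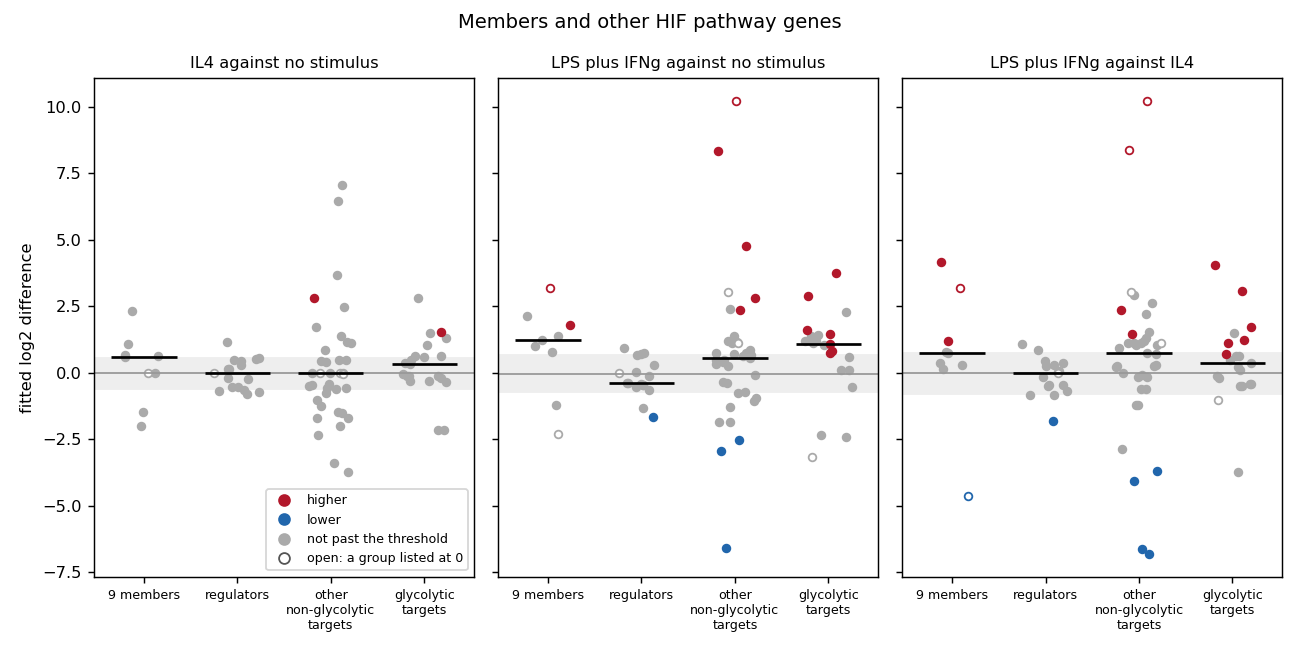
Fitted log2 difference of each tested gene (points) for the 9 members, 17 regulators, 37 other non-glycolytic targets and 21 glycolytic targets, with the list's median as a bar and the middle 50% of all genes as a grey band; open points have a group listed at 0, and colour marks an adjusted p under 0.05 in limma. For LPS plus IFNg against no stimulus the medians are 1.23, -0.38, 0.56 and 1.08, and the 1.23 is the value of Adm, which rests on 1 library.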

How the data were processed

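Macrophage RNA was sequenced from its 3' end in strand-specific libraries, pooled on Actb levels and amplified by PCR, per the labels' protocols. TopHat and the mouse build mm9 are named in the submitters' processing notes; the sources used here do not give the counter, its use of strand or library depths. The authors deposited quantile-normalised log2 values, and a value of 0 may be an undetected gene. Of 20259 rows, 1 without a symbol and 6643 with the same value in all 8 libraries were left out, leaving 13615 genes. They were fitted with limma 3.58.1 (R 4.3.3) on all 8 libraries, 1 mean per group, trended prior variance, 5 residual degrees of freedom and Benjamini-Hochberg adjustment over all genes, and the code was tested on simulated data. Summed marker levels are on the linear scale. Members and lists were chosen with earlier results of these data known. Besides the members, the named genes are, in each list and comparison, the 3 largest changes past the threshold in each direction and the largest that missed it, with others picked after their values were seen (Arnt, Vhl, Egln2, Hif1an, Ak4); 1 listed target is not reported here by name. Promoter windows are RefSeq's (GRCm38.p6). Transcript ends were compared with GENCODE M21. Alternatives left out each library, changed the scaling, the filter on low values, the variance trend, the libraries fitted and a pseudocount of 1, or added the replicate number.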

Additional observations from a re-analysis of the deposited data

How the results depend on the processing

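All values are log2 differences or counts of members past the threshold in limma. Scaling to housekeeping or to ribosomal protein genes, which also moved values listed at 0, changed the counts for LPS plus IFNg. It gave 6 members higher against no stimulus (2 as deposited) and 6 against IL4 (3 as deposited). Of all genes, 12.1% and 39.4% were higher against no stimulus under these scalings, and 3.72% as deposited. Against IL4 these shares were 13.5% and 48.5%, and 5.91% as deposited. Leaving out 1 library at a time gave 2 to 3 and 3 to 4 members higher in these comparisons, while the number of all genes called also changed. It gave 0 to 1 members lower in each of the 3 comparisons: the 1 was Bnip3 for IL4 against no stimulus without IL4 replicate 2, and Epas1 for LPS plus IFNg against no stimulus without unstimulated replicate 2. For LPS plus IFNg against IL4, Epas1 was the 1 lower member, and 0 remained when genes with a mean under 5, Epas1 among them, were left out. Replicate numbers did not pair the libraries: same-numbered libraries had correlations of -0.0791 to 0.0718 over 7283 genes. A replicate block gave 1 member higher with LPS plus IFNg against no stimulus, since Egln3 had adjusted p = 0.0569, and over all genes 7 higher and 1 lower for IL4, and 255 and 256 for LPS plus IFNg, against no stimulus, and 629 and 691 between the stimuli. With the block the listed targets P4ha2, Cxcr4 and Zfp395 had adjusted p = 0.067, 0.0764 and 0.0881 for LPS plus IFNg against no stimulus. Signs turned for differences near 0 or resting on 1 library. P4ha1 with IL4 against no stimulus was -0.053 with the replicate block, -0.061 without unstimulated replicate 2, and -0.157 to 0.119 over single libraries left out. Leaving out single libraries gave Adm -0.022 to 1.62 for IL4 and -0.022 to 1.85 for LPS plus IFNg, each against no stimulus, and -1.09 to 1.25 between the stimuli (-0.39 without IL4 replicate 1 or 2), and gave Ndrg1 -0.015 to 0.77 between the stimuli. With ribosomal protein scaling, LPS plus IFNg against no stimulus was 0.26 for Ndrg1 and 0.13 for Cited2. Apart from what these settings hold by construction, the cause was not tested. With 2 unstimulated libraries and unknown depth, members near 0 (Egln3, Adm, Epas1) have the least certain values.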

Other observations

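Transcripts of regulators known to act on Hif1a transcription were also read. Whether they acted on Hif1a in these libraries was not tested. Stat3, a signal transducer, averaged 9.12 with IL4, 11.08 with LPS plus IFNg and 9.70 without stimulus, and was higher with LPS plus IFNg than without stimulus by 1.38 (limma SE 0.21, adjusted p = 0.00899) and than with IL4 by 1.96 (SE 0.19, adjusted p = 0.000993). Rela, an NF-kB subunit, averaged 5.82, 7.53 and 6.26 in the same groups; LPS plus IFNg was higher than IL4 by 1.71 (SE 0.28, adjusted p = 0.00774), and the difference of 1.27 from no stimulus did not pass (adjusted p = 0.0535). Nfkb1, the partner of Rela, averaged 8.98, 8.41 and 8.32 and passed in neither comparison of LPS plus IFNg (adjusted p = 0.927 against no stimulus and 0.168 against IL4). Ikbkb, a kinase that activates NF-kB, averaged 6.40, 6.81 and 7.04 and passed in no comparison (adjusted p = 0.499 for IL4 and 0.778 for LPS plus IFNg against no stimulus, and 0.478 between the stimuli).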
